A study of Homo sapiens with 10 samples.

Results

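The prostate kallikrein cluster consists of KLK15, KLK3, KLK2 and KLK4, 4 neighbouring genes on chromosome 19 that were chosen by name from the 20033 protein-coding genes of GENCODE release 44 on chromosomes 1 to 22, X and Y. From the first base of KLK15 to the last base of KLK4 they span 86.1 kb, and all peaks over this span and 50 kb to each side of it were taken, a window of 186.1 kb at chr19:50775289-50961395 of GRCh38. The rule uses no measured value, but the cluster was picked with earlier results of these data known.

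The study profiled acetylation of histone H3 at lysine 27 (H3K27ac) and lysine 18 (H3K18ac) by ChIP-seq in a pair of prostate cancer lines. C4-2B is a castration-resistant human prostate adenocarcinoma line of the LNCaP lineage, grown with no drug named for it. C4-2BER was derived from it by continuous exposure to enzalutamide, an antiandrogen drug, and is labelled as neuroendocrine-like. The study's methods state that C4-2BER was also kept in medium with enzalutamide. For each mark and line 2 libraries were made, the study merged them before calling peaks, and 1 peak list per mark and line was deposited, with 1 input library per line. Each line is 1 culture model, so a difference between the lists cannot be told apart from a difference between 2 derived cultures. Nor can it be told apart from the drug being present in the medium of 1 line. A lower mark in every cell cannot be told apart from a mark missing in some cells. With 1 list per group there is no spread between replicates, no test was possible, and every difference given here is a description of those lists. Read depth is unknown from the lists, so no counting interval is given.

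Kallikreins are secreted serine proteases encoded side by side in one large family cluster. KLK3 encodes prostate-specific antigen, the blood marker of prostate cancer, which cleaves the gel-forming semenogelins of semen, and KLK2 encodes a close relative that can activate the KLK3 precursor. KLK3 and KLK2 are textbook androgen-induced genes with androgen response elements in their promoters and in upstream enhancers, and acetylated histone H3 marks promoters and enhancers in use.

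KLK15 (ENSG00000174562.14, minus strand) lies at chr19:50825289-50837213, and KLK3 (ENSG00000142515.16, plus strand) at chr19:50854915-50860764. KLK2 (ENSG00000167751.13, plus strand) lies at chr19:50861568-50880567, and KLK4 (ENSG00000167749.12, minus strand) at chr19:50906351-50911395. Relative to the start site of KLK3, the canonical start site lies at -21.3 kb for KLK15, 18.5 kb for KLK2 and 56.5 kb for KLK4, where minus means towards the start of the chromosome. The annotation lists 8 start sites for KLK15, 8 for KLK3, 17 for KLK2 and 6 for KLK4. KLK1 and the pseudogene KLKP1 also lie in the window, as do KLK5 and part of KLK6.

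The stretches before the start sites are shown first, because the peaks described here cover them and because KLK3 and KLK2 share an element there. They come from the RefSeq promoters of GRCh38.p14, in which all 4 genes matched and each start of transcription fell on the canonical start site. For KLK3 and KLK2 the capitals mark the best match, on either strand, to the full androgen response element (AGAACA, any 3 bases, TGTTCT), and for KLK4 and KLK15 they mark TATAA. The KLK3 and KLK4 sequences are the whole 250 bases before the start site at chr19:50854665-50854914 and chr19:50911396-50911645. For KLK2 only the 43 bases at chr19:50873255-50873297 that lie between exons of alternative transcripts are printed, and for KLK15 only 30 bases at chr19:50833587-50833616, because an alternative transcript has an exon over all of that promoter.
KLK3: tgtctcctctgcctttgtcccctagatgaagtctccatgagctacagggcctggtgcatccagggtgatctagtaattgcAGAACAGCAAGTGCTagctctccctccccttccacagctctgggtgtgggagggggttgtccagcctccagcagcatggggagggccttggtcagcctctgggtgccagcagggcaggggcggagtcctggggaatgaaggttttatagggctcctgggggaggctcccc
KLK2: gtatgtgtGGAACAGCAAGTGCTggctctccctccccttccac
KLK4: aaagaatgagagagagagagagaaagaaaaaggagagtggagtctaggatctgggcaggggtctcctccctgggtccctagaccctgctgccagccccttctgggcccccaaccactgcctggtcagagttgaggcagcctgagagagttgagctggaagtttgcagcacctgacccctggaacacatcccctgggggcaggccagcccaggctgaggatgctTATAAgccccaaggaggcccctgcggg
KLK15: ggactgggagctTATAAattcaggcatcct

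The element of KLK3 differed from the pattern at 2 of its 12 fixed letters, T10A and T13G, counted from 1 at the 5′ end of the element with the letter of the pattern first. It lay at -170 to -156 relative to the start site, at chr19:50854745-50854759, and 1.19% of 34943 RefSeq promoters held a match with as few mismatches. The element of KLK2 lay at -176 to -162, at chr19:50873263-50873277, and carried those differences and A1G, which made 3 mismatches, as few as in 9.18% of promoters. A1G was the only difference between the elements of the 2 genes. Over the whole 250 bases, 205 of 241 aligned bases were identical between KLK3 and KLK2 (85.1%), against 49.2% to 60.2% for the other pairs of the 4 genes. KLK15 and KLK4 held no match with fewer than 5 mismatches, which 85.4% of promoters reach. They held TATAA in the last 50 bases before the start site (at -30 and -27), as did 4.74% of all promoters, and KLK3 and KLK2 did not. These matches describe letters in a window and not binding.

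Over the whole window the element was sparse. With at most 2 mismatches, 6 matches were found, where the median of 15625 stretches of the genome as long as the window was 14, and 3.94% of stretches had fewer. The GC content of the window was 49.96%, against a median of 39.8% over the stretches. Of the 6 matches, 3 lay in an H3K27ac peak of C4-2B, and 3 in one of C4-2BER. They were the KLK3 promoter element, one in KLKP1 at chr19:50887189-50887203 and one in an exon of KLK4 at chr19:50909310-50909324.

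Acetylation filled much of the cluster in both lines. H3K27ac peaks covered 83.1 kb of the window in C4-2B (44.7%) with 15 peaks, and 88.9 kb in C4-2BER (47.8%) with 10 peaks. Between the first and last base of the 4 genes, 73.9% of the bases lay in H3K27ac peaks in C4-2B and 76.7% in C4-2BER. Of the C4-2B bases covered, 95.9% were covered in C4-2BER as well. The length that carried the mark was thus nearly the same, with a ratio of C4-2BER to C4-2B of 1.07, where the median over 10743 stretches with peaks in both lines was 1.27.

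The fold enrichment within those peaks was lower in C4-2BER. Each peak carries a fold enrichment, the mean read pileup over the local background of its own list, and this is the unit of every level given here. Averaged over the covered bases of the window, H3K27ac stood at 14.7-fold in C4-2B and 9.76-fold in C4-2BER, a ratio of 0.665. Within the span of the genes the means were 15.7-fold and 10.3-fold.

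The cluster stood near the top of the genome in both lines. Of 16582 stretches as long as the window, 35 had at least its mean H3K27ac fold over all bases in C4-2B and 72 in C4-2BER. For H3K18ac the numbers were 57 and 30. The ratio of that H3K27ac mean between the lines was 0.711, where the median stretch stood at 0.985 and 22.1% of stretches had a lower ratio.

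H3K18ac differed less. Its peaks covered 117.6 kb of the window in C4-2B (63.2%) with 24 peaks and 115.6 kb in C4-2BER (62.1%) with 16 peaks, a ratio of 0.983. The median ratio of covered length over 14283 stretches with H3K18ac peaks in both lines was 1.22, and 34.2% had a lower ratio than the window. For H3K27ac 33.6% had a lower one. The mean fold in peaks was 5.56 in C4-2B and 5.22 in C4-2BER, a ratio of 0.939. Over all bases of the window the ratio of the H3K18ac means was 0.924, where the median stretch stood at 1.09 and 36.9% had a lower ratio. Within the span of the genes H3K18ac covered 83.0% and 88.9% of the bases, so there the covered length was larger in C4-2BER, by a ratio of 1.07. Each of the 15 and 10 H3K27ac peaks overlapped an H3K18ac peak of the same line, whereas 12 of 24 H3K18ac peaks in C4-2B and 8 of 16 in C4-2BER lay outside H3K27ac.

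**Figure D1:**
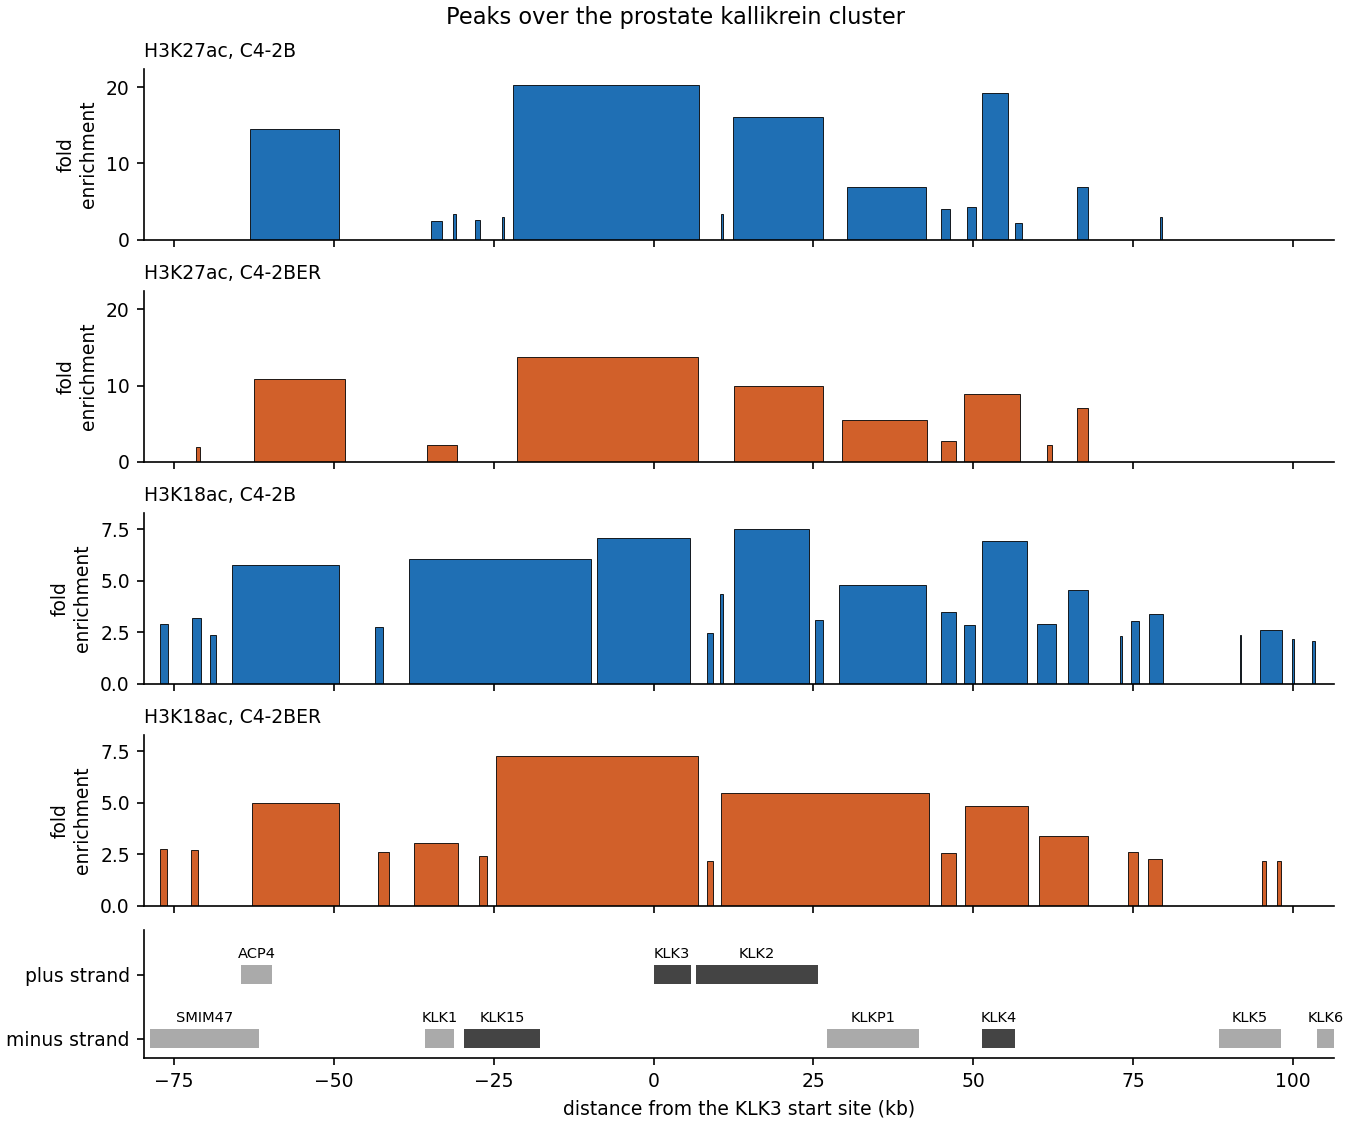
Each bar is 1 deposited peak, drawn at its position in kb from the KLK3 start site with its fold enrichment as height, for H3K27ac and H3K18ac in C4-2B (blue) and C4-2BER (orange), above the genes of each strand (members dark). The wide H3K27ac bars over KLK3, KLK2 and KLKP1 lie at nearly the same places in both lines, the 3 at KLK4 in C4-2B are 1 in C4-2BER, 6 weak ones are in 1 line only, and the tallest stands at 20.3 in C4-2B and 13.8 in C4-2BER, and the H3K18ac bars of C4-2BER are fewer and wider.

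KLK3 lay wholly inside the strongest H3K27ac peak of the window. In C4-2B this peak ran over 29.1 kb at chr19:50832882-50861969 with a fold of 20.3, from the KLK15 start site across all of KLK3 to the most upstream start site of KLK2. In C4-2BER its counterpart ran over 28.4 kb at chr19:50833514-50861919 with a fold of 13.8. These were the 59th widest of 68034 peaks and the 104th widest of 72971 (ranks 59 and 104), so 1 broad domain joined the 3 genes in both lines. The log2 ratio of C4-2BER to C4-2B was -0.56 for this domain.

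The 17.7 kb between KLK15 and KLK3, which holds the sequence upstream of the KLK3 promoter, were covered by this H3K27ac domain over their whole length in both lines. For H3K18ac the 2 lines differed in continuity there. C4-2B had a peak over KLK1 and KLK15 (chr19:50816665-50845078, fold 6.07) and another over KLK3 (chr19:50846036-50860650, fold 7.06), with a gap of 957 bases between them. C4-2BER had 1 peak of 31.6 kb over KLK15, the interval and KLK3 (chr19:50830292-50861847, fold 7.28). Averaged over the interval with 0 outside peaks, H3K18ac stood at 6.24 in C4-2B and 7.28 in C4-2BER, while H3K27ac stood at 20.3 and 13.8. In this interval H3K27ac was thus lower and H3K18ac higher in C4-2BER, but the H3K18ac peaks of the 2 lines had different ends. Over the joined H3K18ac region at chr19:50816665-50861847 the fold was 6.41 in C4-2B and 6.39 in C4-2BER. Its log2 ratio was -0.003, and -0.12 as a mean over the joined region with 0 outside peaks.

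KLK3 itself showed the same pair of values. H3K27ac over its gene body was 20.3 in C4-2B and 13.8 in C4-2BER, and H3K18ac was 6.92 and 7.28. At its start site H3K18ac was 7.06 and 7.28, a log2 ratio of 0.04. Both marks covered its start sites in both lines, including the element printed above.

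KLK2 had a second H3K27ac peak of its own. It covered 14.2 kb at chr19:50867279-50881457 with a fold of 16.0 in C4-2B, and 14.0 kb at chr19:50867482-50881456 (13.97 kb) with a fold of 9.96 in C4-2BER. The log2 ratio at the canonical start site was -0.69 for H3K27ac and -0.46 for H3K18ac (7.52 to 5.45). The peak covered 16 of the 17 annotated start sites, and the most upstream one lay in the KLK3 domain. For H3K18ac the C4-2B peaks over KLK2 and KLKP1 were separate, and in C4-2BER 1 peak of 32.5 kb at chr19:50865391-50897934 spanned both.

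Fold is a mean over each whole peak, so it moves with where a peak begins and ends. Over the gene body of KLK2, with 0 outside peaks, the H3K18ac means were 4.87 and 4.58, a log2 ratio of -0.09. For H3K27ac the body means were 11.7 and 7.12, a log2 ratio of -0.72, where peak width was almost the same.

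KLK15 sat at the edge of the domain. Its canonical start site was covered in both lines (20.3 and 13.8 for H3K27ac), but the H3K27ac domain began at 50832882 in C4-2B and at 50833514 in C4-2BER. The domain thus covered 2 alternative start sites, at 50833187 and 50833210, in C4-2B and not in C4-2BER. Another KLK15 start site, at 50827151, lay in a separate weak H3K27ac peak of C4-2B (2.59) and in no H3K27ac peak of C4-2BER. Over its gene body H3K27ac covered 44.7% of the bases in C4-2B and 31.0% in C4-2BER, with means of 7.60 and 4.27. H3K18ac covered all of it in C4-2B and 68.7% of it in C4-2BER, with means of 6.07 and 4.48. At the canonical start site H3K18ac was higher in C4-2BER (6.07 to 7.28, a log2 ratio of 0.26), so start site and gene body pointed in opposite directions for this mark.

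KLK4, which encodes a protease also needed for tooth enamel, differed in the shape of its peaks. In C4-2B a peak of 4.02 kb at chr19:50906289-50910305 with an H3K27ac fold of 19.2 covered most of the gene body and stopped before the canonical start site at 50911395. That site lay in a separate weak peak of 1.16 kb at chr19:50911385-50912547 with a fold of 2.26, and a further peak beyond the end of the gene (chr19:50903977-50905267) had a fold of 4.35. In C4-2BER 1 peak of 8.86 kb at chr19:50903424-50912282 with a fold of 8.90 overlapped all of these and covered the gene with its canonical start site.

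The KLK4 difference therefore depended on where it was read. Taking the highest peak over all its start sites, H3K27ac was 19.2 in C4-2B and 8.90 in C4-2BER, a log2 ratio of -1.11. Over the gene body the means were 15.1 and 8.90, a log2 ratio of -0.76. In the window of the canonical start site the values were 2.26 and 8.90, a log2 ratio of 1.98. The last value rests on the single mean that 1 wide peak gives to all its bases. H3K18ac over KLK4 was 6.94 in C4-2B and 4.85 in C4-2BER, with the start site inside the same peak as the gene body in both lines, and its log2 ratio was -0.52 at the start site and over the body.

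**Figure D2:**
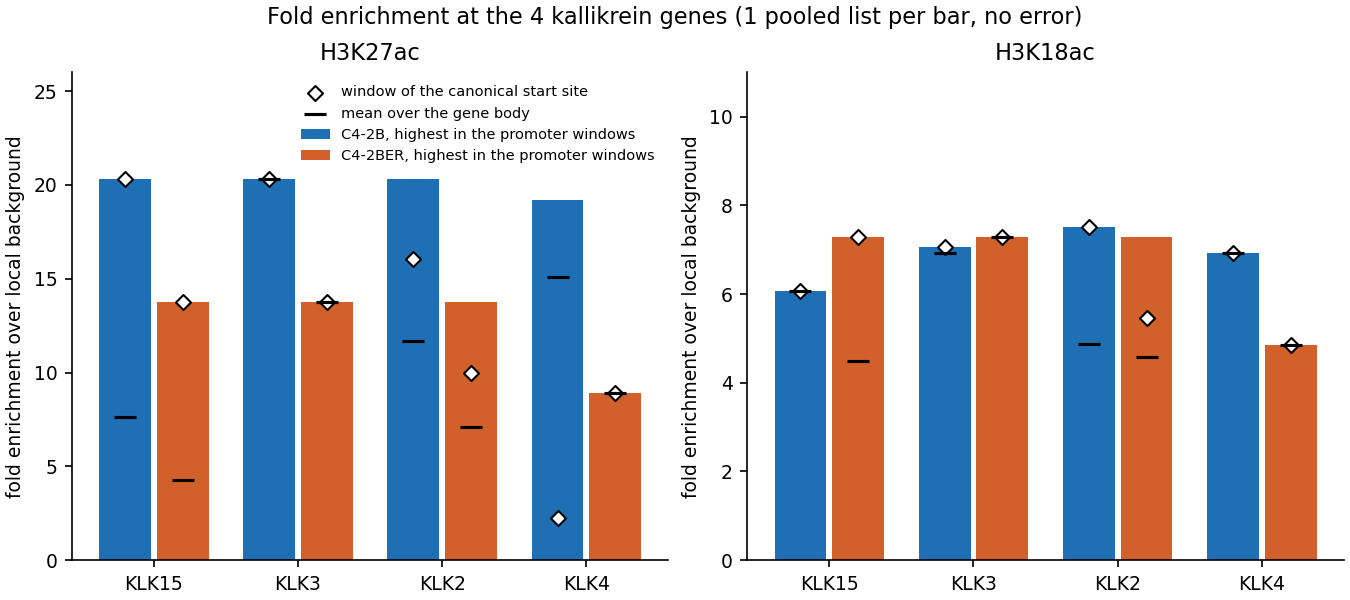
Bars give the fold enrichment of the highest peak in the promoter windows of each gene, for C4-2B (blue) and C4-2BER (orange) and each mark, diamonds the window of the canonical start site and dashes the mean over the gene body with 0 outside peaks. Each value is from 1 pooled list and has no error, and KLK4 has a C4-2B diamond at 2.26 far under its bar at 19.2.

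To count changes, overlapping peaks of the 2 lines were joined into regions, and a region was called decreased in C4-2BER if only C4-2B had a peak there or if its fold was lower by a ratio of at least 2, and increased in the reverse case. Of 14 H3K27ac regions in the window, 4 were called decreased, where 22.7% of 89877 regions of the genome were, and 2 increased, where 30.5% were. All of those called had a peak in 1 line only, none covered the canonical start site of a member, and their folds were between 1.89 and 3.40. The 4 decreased ones were 233 to 769 bases wide, and 2 of them lay in KLK15 and 1 in KLK2. Of the 8 regions shared by the lines, 7 had a lower fold in C4-2BER, with a median log2 ratio of -0.50 against -0.17 over 45431 shared regions of the genome. After rescaling 7 of 8 remained lower, with medians of -0.19 and -0.03. As means over the joined region, with 0 outside peaks, 5 of 8 were lower and 3 higher.

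The exception was a peak beyond KLK4, at chr19:50921067-50922834 in C4-2B, 66.2 kb downstream of the KLK3 start site, where H3K27ac was 6.94 in C4-2B and 7.07 in C4-2BER. Over KLKP1, the pseudogene between KLK2 and KLK4, the fold was 6.94 and 5.53. The log2 ratio of the KLK2 peak was -0.69 as deposited and -0.32 after rescaling, and 14.7% and 22.5% of shared regions of the genome fell below it. For the KLK15 to KLK3 domain these shares were 21.5% and 40.1%.

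Of 18 H3K18ac regions, 5 were called decreased, where 23.5% of 247646 regions were, and 0 increased, where 26.2% were. The fold was lower in C4-2BER in 13 of 13 shared regions as deposited, in 9 of 13 after rescaling and in 9 of 13 as means over the joined region. The median log2 ratio as deposited was -0.21 against -0.12 genome-wide. None of the 5 lay over a member gene, and their folds were between 2.09 and 2.38.

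Across the genome the log2 ratio fell with the level of a region, with a slope of -0.17 for H3K27ac and -0.092 for H3K18ac per log2 unit, so the promoters were set against all others. A promoter ran from 2000 bp before to 500 bp after every start site of a gene, and its value was the highest fold among the peaks there. KLK15, KLK3 and KLK2 shared 1 H3K27ac value in each line, since 1 domain reached a start site of each, and their log2 ratio of -0.56 lay close to the median of -0.50 over 14304 protein-coding genes with a promoter peak in both lines. Of these genes 44.1% had a lower ratio than the 3, and 4.73% had a lower one than KLK4 at -1.11. For KLK2 the domain reached only the most upstream start site, and the log2 ratio in the window of its canonical one was -0.69.

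KLK4 was the only member whose promoter was called decreased for H3K27ac, and 10.8% of 15346 protein-coding promoters with a peak were called so. No member was called increased, as 4.56% of promoters were. When the relation between ratio and level over all shared regions was removed with a robust line, the log2 ratio was -0.13 for KLK15, KLK3 and KLK2 and -0.74 for KLK4, no longer past the ratio of 2. The median of all promoters was then -0.11.

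For H3K18ac no member was called in either direction, where 5.9% of 17828 promoters were called decreased and 2.15% increased. The log2 ratios were 0.26 for KLK15, 0.04 for KLK3, -0.05 for KLK2 and -0.52 for KLK4, against a median of -0.33. Of the genes with a promoter peak in both lines, 95.8% had a lower ratio than KLK15, 87.5% than KLK3, 81.4% than KLK2 and 27.6% than KLK4. After rescaling the median was -0.13 and KLK2 changed sign, to 0.19. These KLK2 ratios set its own peak in C4-2B against the peak over KLK15 and KLK3 in C4-2BER, which reached its most upstream start site. In the window of the canonical KLK2 start site H3K18ac was 7.52 and 5.45, a log2 ratio of -0.46.

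**Figure D3:**
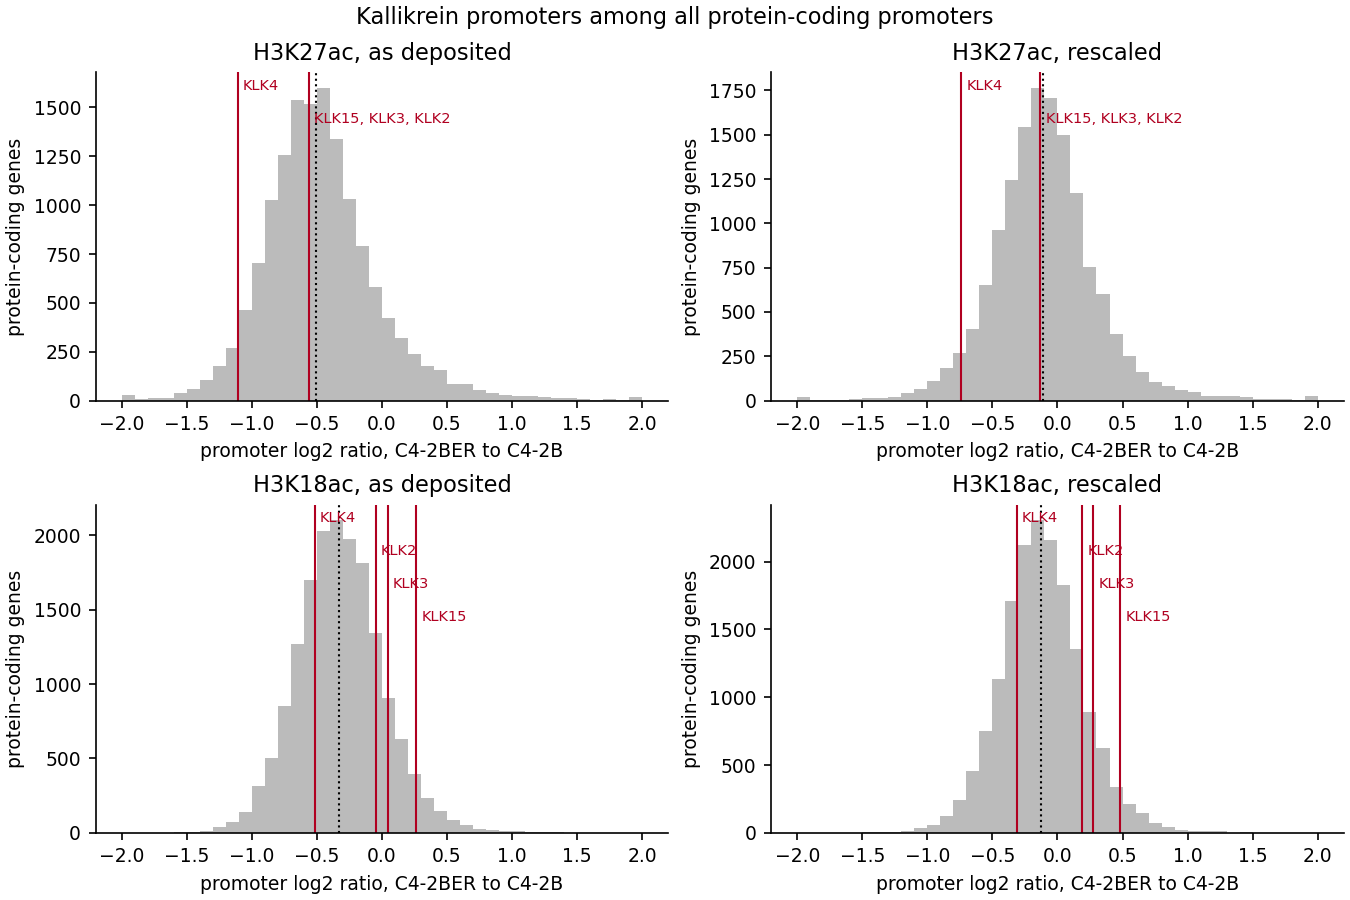
Grey bars count protein-coding genes by the log2 ratio of promoter fold, C4-2BER to C4-2B, for both marks as deposited and after rescaling, with values past 2 units placed in the end bars, the dotted line at the median and red lines at the 4 genes. For H3K27ac the line of KLK15, KLK3 and KLK2 lies beside the median and KLK4 lies to its left, while for H3K18ac KLK4 alone lies left of the median. The H3K18ac value of KLK2 comes from different peaks in C4-2B and C4-2BER.

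In order of promoter H3K27ac level, KLK15, KLK3 and KLK2 came first with 20.3 in C4-2B and KLK4 followed with 19.2. These are the highest values over all start sites, and the canonical windows of KLK2 and KLK4 stood at 16.0 and 2.26 in C4-2B. Among all promoters with a peak, the share with a lower fold was 59.8% for KLK15, KLK3 and KLK2 and 55.0% for KLK4. In C4-2BER the share was 60.5% for the 3 genes and 25.7% for KLK4. By width the peaks ranked higher, since 99.9% of H3K27ac peaks were narrower than the KLK15 to KLK3 domain in each line, and 91.5% in C4-2B and 97.6% in C4-2BER were narrower than the main KLK4 peak. For H3K18ac the share under the 3 genes was between 38.7% and 54.7% in C4-2B and was 78.9% in C4-2BER.

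The genes most like each member were found by the distance over the 4 promoter values, as log2 of fold plus 1, across 4 lists. For KLK3 the nearest was KLK2, at a distance of 0.080, and then MRGBP and ACTL10. For KLK2 they were ESRP2, UQCR10 and ZMAT5, for KLK15 LBHD1, UQCC3 and RILP, and for KLK4 ATG2A, NLK and CCDC103. For KLK4 the nearest gene, ATG2A, had H3K27ac of 18.9 and 8.66 and H3K18ac of 7.22 and 4.54. KLK3 and KLK2 share the peaks behind 3 of their 4 values.

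Beyond KLK4 the kallikrein genes had little or no H3K27ac at their promoters. Of the 12 other kallikrein loci, counting KLKP1 between KLK2 and KLK4, 4 had an H3K27ac promoter peak in either line. They were KLK1, the tissue kallikrein that releases kinins (3.32 and 2.27), KLKP1 (6.94 and 5.53), KLK8 in C4-2B only (2.47) and KLK10 in C4-2BER only (2.43). KLK8 was called decreased and KLK10 increased, as were 10.8% and 4.56% of protein-coding promoters with a peak. All 12 had an H3K18ac promoter peak in at least 1 line, and from KLK5 to KLK14 its fold stayed between 2.19 and 3.44. For that mark 1 of the 12 was called decreased, KLK14, with a peak in C4-2B only (2.85), and 0 increased. Among protein-coding promoters with an H3K18ac peak the shares were 5.9% and 2.15%. KLK5, KLK7 and KLK14 are proteases of skin shedding, and KLK6 is abundant in brain.

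KLK1, beside KLK15, had an H3K18ac log2 ratio of -0.99 (6.07 to 3.07). Its C4-2B value is that of the peak it shares with KLK15, and in C4-2BER a separate peak of 6.88 kb at chr19:50817451-50824325 covered it. In C4-2BER the H3K18ac peak over KLK3 began inside KLK15, at 50830292, and in C4-2B the peak over KLK15 reached over KLK1.

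**Figure D4:**
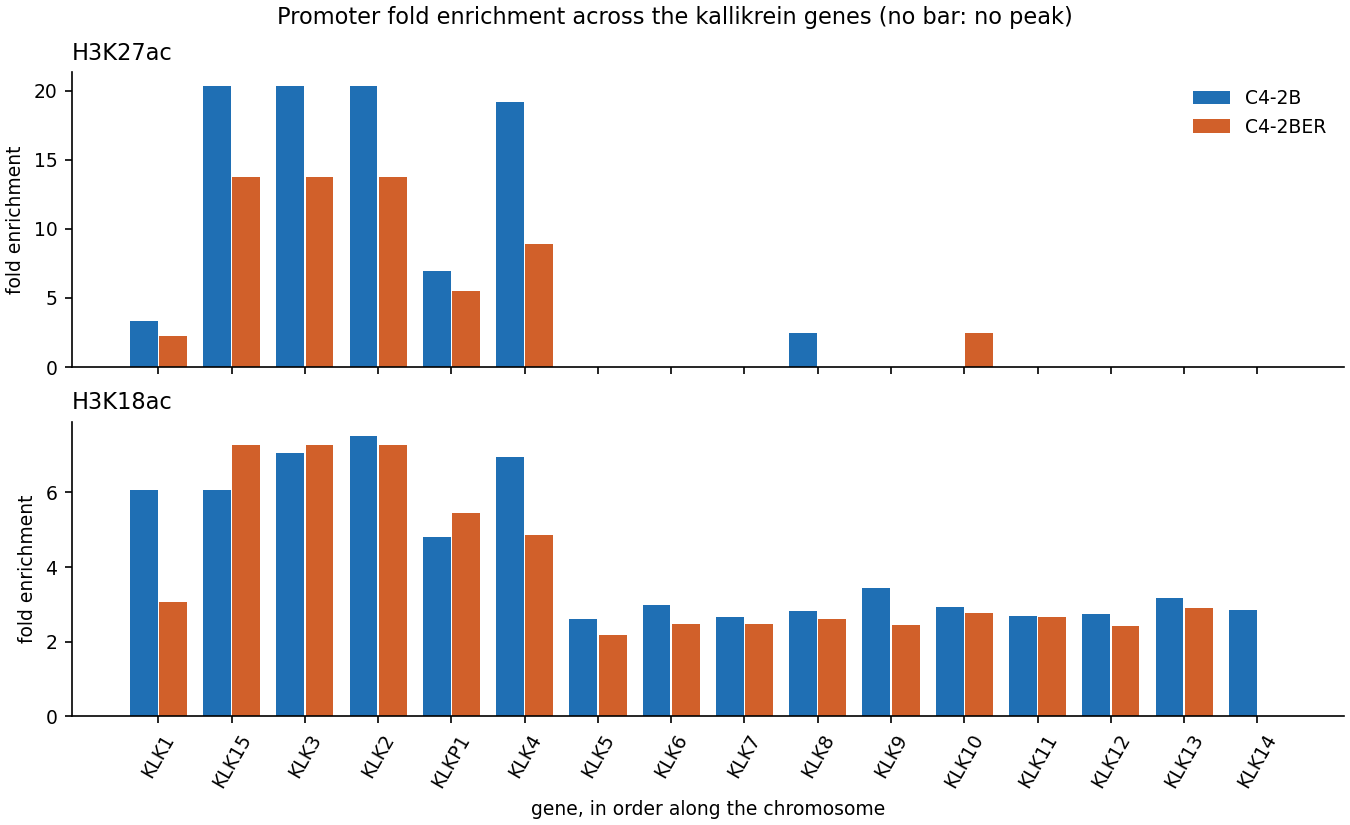
Bars give the promoter fold enrichment of the kallikrein genes in order along the chromosome, for H3K27ac and H3K18ac in C4-2B (blue) and C4-2BER (orange), and a missing bar means no peak. H3K27ac stands between 8.90 and 20.3 at KLK15, KLK3, KLK2 and KLK4 and at 6.94 and 5.53 at KLKP1 between them, and is absent or under 3 beyond KLK4, whereas H3K18ac keeps low bars of 2.19 to 3.44 there.

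Cofactors and target genes of androgen signalling were taken for comparison. All 13 had promoter peaks of both marks in both lines. H3K27ac was lower in C4-2BER at 12 of 13 with a median log2 ratio of -0.41, where 87.8% of all protein-coding promoters with a peak in both lines were lower and the median was -0.50. TRPM8, an ion channel gene, was the 1 called decreased (14.3 to 5.49), where 10.8% of all protein-coding promoters with a peak were. None was called increased for H3K27ac, as 4.56% of promoters were. For H3K18ac none was called in either direction, where 5.9% of promoters were called decreased and 2.15% increased. FOXA1, a pioneer factor, had H3K27ac of 29.0 and 15, TMPRSS2, an androgen-regulated protease gene, 21.51 and 20.03, and ACP3, which encodes prostatic acid phosphatase, 10.96 and 11.87.

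Of 7 genes for inhibitors, substrates and a receptor of kallikreins, 3 had an H3K27ac promoter peak. F2RL1, a protease-activated receptor that kallikreins can cleave, was called decreased (27.5 to 11.8, a log2 ratio of -1.22), but not after rescaling (-0.77). A2M, a broad protease inhibitor, had a peak of 2.23 in C4-2BER alone and was called increased. SEMG2, a semenogelin gene, had 9.10 and 14.9, a log2 ratio of 0.71, and was called increased after rescaling only (1.06). As deposited 1 of the 7 was called decreased and 1 increased, as were 10.8% and 4.56% of protein-coding promoters with a peak. The shares of all promoters called after rescaling are not given here, so the rescaled calls of F2RL1 and SEMG2 have no such comparison. For H3K18ac 5 of 7 had a peak and 0 were called in either direction, where 5.9% of promoters were called decreased and 2.15% increased.

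The cell type labels were checked at marker promoters, since the comparison rests on them. All 4 luminal markers had H3K27ac promoter peaks in both lines and 0 were called, where 10.8% of protein-coding promoters were called decreased and 4.56% increased. Of 5 neuroendocrine markers 2 had one, of which ENO2 (4.00 to 14.3) was called increased and SYP had 8.16 and 5.67, while CHGA, INSM1 and NCAM1 had no H3K27ac promoter peak in either line. The basal, stromal and immune markers (3, 2 and 2 genes) had no H3K27ac promoter peak in either line. For H3K18ac all 4 luminal and all 5 neuroendocrine markers had a peak and 0 were called, where 5.9% of promoters were called decreased and 2.15% increased. H3K18ac was lower in C4-2BER at 4 of the 5 neuroendocrine markers, among them CHGA (4.31 to 2.29), and higher at ENO2 (4.06 to 4.33). Of all protein-coding promoters with an H3K18ac peak in both lines, 84.9% were lower. H3K18ac was also found at 2 of 3 basal, 2 of 2 stromal and 0 of 2 immune markers. DCN, a stromal gene with a peak in C4-2BER only (2.68), was called increased. H3K27ac thus lay at the same 2 of the 5 neuroendocrine marker promoters in both lines, and luminal promoters carried the mark in both lines.

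Repeated sequence bears on how reads could be placed. Of all words of 32 bases in the window, 14.8% also occurred elsewhere in the genome, and the share was 6.72% in KLK3, 7.75% in KLK4, 9.02% in KLK2 and 10.9% in KLK15. In the one-line H3K27ac regions it reached 76.3%, in the 245-base C4-2B region of KLK2. Words were counted wherever they recurred, and matches between kallikrein genes were not counted apart. Whether repeated sequence moved any fold was not tested. The window also holds 9 other genes annotated as protein-coding or long non-coding RNA, KLK1 and KLKP1 among them, and promoter values were computed for these and not for its snoRNAs and other pseudogenes. They had H3K27ac promoter peaks at 4 and H3K18ac promoter peaks at 9. ACP4, a phosphatase gene with an H3K18ac peak in C4-2B only (5.74), was the 1 called decreased, as 5.9% of protein-coding promoters were.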

How the data were processed

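The 4 ChIP-seq peak lists, 1 per mark and line, came from 8 ChIP libraries with 2 inputs. Per the study's methods, the authors mapped the reads to GRCh38 using Bowtie2, dropped duplicates, poorly mapped reads and blacklisted regions, merged both replicates and called broad peaks with macs2. Its version and options are not given in the sources used here. The deposited lists hold for each peak a mean fold enrichment (a ratio over local background), the −log10 p-value and −log10 q-value, and a display score made by the authors. The p-value and the score were not used. Fold enrichment is not scaled between lists, so depth, background and peak width can change it.

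Peaks were matched to GENCODE release 44 with numpy 2.4.6 and pandas 2.3.3. No peak ran past a chromosome end of GRCh38. Regions joined peaks that shared any base, valued by the length-weighted mean fold. Ratios were rescaled with a robust line (statsmodels 0.14.6) of log2 ratio on mean log2 level over shared regions. Calls needed a ratio of 2 or a peak in 1 line only. The steps were tested on simulated data, where 5000 of 5000 regions and 5000 of 5000 promoters were called as planted. Promoter pairs were aligned with biopython 1.88. No column of per-sample values was left unused.

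Named genes were the members, the other kallikreins, genes of the window, inhibitors, substrates and a receptor of kallikreins, cofactors and targets of androgen signalling, cell type markers, and the 3 genes nearest to each member in promoter values. The members and lists were chosen with earlier results of these data known, and some listed genes are not reported here. Other thresholds, flanks, promoter windows and scalings were tried, and single libraries were not analysed here.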

Additional observations from a re-analysis of the deposited data

How the results depend on the processing

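For 14 results, 16 alternative settings were set in advance and 1 was added after seeing the data (the mean over the gene body). Of 130 values, 109 were scored as unchanged. For ratios this meant the same direction and the same side of the threshold. A count of regions could shift and still be scored so, as H3K27ac regions called decreased did from 4 to 6 with flanks of 100 kb. H3K27ac regions called decreased went from 4 to 2 with peaks of −log10 q of at least 5 and to 1 with fold of at least 4. Those called increased went from 2 to 0 under both thresholds, to 1 with flanks of 25 kb and to 0 with none. H3K18ac regions called decreased went from 5 to 1 with fold of at least 4, to 1 with flanks of 25 kb, to 14 with 100 kb and to 0 with none, and those called increased from 0 to 3 with 100 kb. The flank sets which regions are counted, and the cause of these changes was not tested. The H3K18ac covered length ratio turned from 0.983 to 1.06 with flanks of 25 kb and to 1.07 with none.

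For KLK4 H3K27ac the log2 ratio of -1.11 became -0.74 after rescaling, -0.58 as a mean over the promoter windows and -0.76 over the gene body, none of them past the ratio of 2, and 1.98 at the canonical start site, where C4-2B had only the weak peak. KLK15 H3K18ac turned from 0.26 to -0.063 as a mean over the windows and -0.44 over the gene body. KLK2 H3K18ac turned from -0.05 to 0.19 after rescaling and 0.055 after division by the list medians, and at the canonical start site it was -0.46. The causes of these changes at KLK4, KLK15 and KLK2 were not tested. KLK15, KLK3 and KLK2 stayed lower in H3K27ac under all 9 settings tried for each. With the canonical start site only, KLK2 stood at -0.69, in a peak of its own. The main value of KLK15, KLK3 and KLK2 comes from 1 shared peak, and many settings returned the same -0.56, so these are not separate checks. After rescaling it was -0.13, beside the promoter median of -0.11, and 87.8% of all promoters with a peak in both lines were lower as deposited.

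No paired analysis was possible because the replicates were merged before peaks were called, and for the same reason leaving out a replicate could not be done. Depth is unknown, so its effect on weak peaks could not be measured.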

Other observations

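The window held one more strong H3K27ac domain, at its left end and away from the kallikreins. It covered C19orf48P and the most upstream start site of SMIM47, but not the canonical start site of SMIM47. The domain had 14.5-fold over 13.9 kb in C4-2B (chr19:50791874-50805768) and 10.8-fold over 14.1 kb in C4-2BER (chr19:50792483-50806628). Its log2 ratio of -0.43 was smaller in size than the -0.56 of the KLK15 to KLK3 domain. H3K18ac over it was 5.74 and 4.98. Between KLKP1 and KLK4, over 9.95 kb, the mean H3K27ac fold with 0 outside peaks was higher in C4-2BER (2.07 in C4-2B and 3.95 in C4-2BER), because the wide KLK4 peak of C4-2BER reached into it.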
